A study of Drosophila melanogaster with 2 samples.

Results

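The 10 genes described here, pita, ZIPIC, M1BP, dwg, grau, wek, ouib, nom, trem and Meics, encode transcription factors of Drosophila melanogaster that carry a zinc-finger associated domain (ZAD). They were taken from a list of symbols and found in the dm6 annotation, where they are 10 of 18164 genes and 10 of 13945 protein-coding genes. The question asked of them was whether another zinc finger protein, CG10654, bound at or near each one. For every gene, all peaks were collected whose summit lay in the gene's span or within 2 kb of it.

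The data came from chromatin immunoprecipitation followed by sequencing (ChIP-seq) with an antibody against green fluorescent protein (GFP). The material was whole embryos of 0 to 24 h, males and females pooled, from a transgenic line that stably expressed CG10654 with GFP at its C-terminal end. The samples were 1 group of 2 biological replicates, both from that line, with no other genotype, age or treatment. Each value therefore averages over all tissues and stages of the embryo, and whether the GFP tag alters what the protein does was not tested. Chromatin had been sonicated to fragments of 200 to 800 bp.

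The ZAD sits at the start of the protein, holds a zinc ion with cysteines and lets the proteins pair with each other. It is followed by C2H2 zinc fingers, which read DNA. The family is large in insects, and several of its members act as insulator or promoter proteins, while others serve the germline, steroid hormone synthesis or immune signalling. CG10654 itself is an uncharacterized gene.

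Membership of the family was checked on the proteins translated from the longest annotated coding sequence of each gene. All 10 held C2H2 fingers, between 5 in M1BP, ouib, nom and trem and 12 in Meics. A strict pattern of paired cysteines with a proline before the second pair, in the first 200 residues, was found in 7 of the 10 proteins, namely pita, M1BP, dwg, ouib, nom, trem and Meics. ZIPIC, grau and wek matched once the proline was not required. CG10654 itself, a protein of 412 residues with 6 fingers, likewise matched only without the proline, at residues 40 to 91.

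The deposited files were peak lists. The authors called candidates in replicate 1 (23253), in replicate 2 (30000, which may be a limit on the list's length) and in the pooled reads of both (27219). They then kept 4117 peaks by the irreproducible discovery rate (IDR), which compares how candidates rank between replicates. The pooled list is labelled as peaks and background used as input for IDR. Each candidate carries a signal value, the authors' own enrichment per peak, which has no absolute scale and no error and is used here to describe and rank peaks within a list. The IDR peaks were the top 15.1% of the pooled list by this value, down to 99.3, so the IDR list separates strong from weak candidates. The files do not give the read depth. Because the pooled list was made from the reads of the replicates, a match between them is no independent check of a site.

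CG10654 had strong peaks at 3 of the 10 ZAD genes: M1BP, pita and trem. Each of these 3 genes had an IDR summit within 500 bp of a transcription start site (TSS), here called a promoter summit. At Meics, ouib, nom, grau and wek there were only weaker candidates, at dwg 1 weak candidate of replicate 2 alone, and at ZIPIC none. The count of 3 of 10 with an IDR summit in the span or within 2 kb stands beside 30.9% of all genes and 34.4% of protein-coding genes, so the listed genes were not set apart by it in either direction. For promoter summits, 3 of 10 stands beside 16.3% of all genes and 19.8% of protein-coding genes. With 10 genes listed by name and 1 group of samples, no test was made.

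In the pooled list, 8 of the 10 genes had a candidate in the span or within 2 kb, against 73.6% of all genes. A pooled candidate within 500 bp of a TSS was present at 5 of the 10 (pita, M1BP, grau, trem and Meics), against 45.3% of all genes. These 8 genes shared 18 different pooled candidates, of which 6 had the summit inside the span of a listed gene. A summit within 100 bp was found in both replicates for 8 of the 18, against 39.6% of all pooled candidates. All 4 IDR peaks of the listed genes were among these 8. ZIPIC was the 1 gene of 10 without a candidate in any list, which was the case for 16.7% of all genes.

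The strongest candidate of each gene was set side by side in the lists. M1BP came first in each list, with a signal of 224 in replicate 1, 105 in replicate 2 and 317 in the pooled reads. Next were pita, with 147, 54.2 and 205 at a peak shared with its neighbours wmd and levy, and trem, with 138, 60.8 and 197. These genes changed places between replicates, so their order is not resolved. Meics followed, with 47.1 in its coding sequence in replicate 1, and 32.6 in replicate 2 and 64.8 in the pooled reads near its TSS. Below it, the candidate shared by ouib and nom (41.1 in replicate 1), the strongest of wek (32.1) and that of grau (25.0) stood in that order in replicate 1. In replicate 2 the strongest candidates had signals of 16.0 at grau, 15.7 at wek, 11.4 at dwg, 10.8 at ouib and 10.1 at nom. The weak candidates thus gave no common order, and the strongest of ouib, grau and wek were different sites in the replicates. That of ouib stood at 32.7% of the list in replicate 1, 38 bp upstream of the CG8159 TSS. In replicate 2 it stood at 90.9%, in the CG8159 coding sequence. That of grau was at 77.1% in replicate 1, 44 bp upstream of the CG30291 TSS, and at 48.4% in replicate 2, in the grau 5′ UTR. That of wek lay in its coding sequence in replicate 1. In replicate 2 it lay 1888 bp outside wek, 25 bp from the CG3793 TSS. The 3 genes with IDR peaks lay above the other 7 in both replicates, which the way IDR peaks are kept brings about and which is no separate result.

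**Figure D1:**
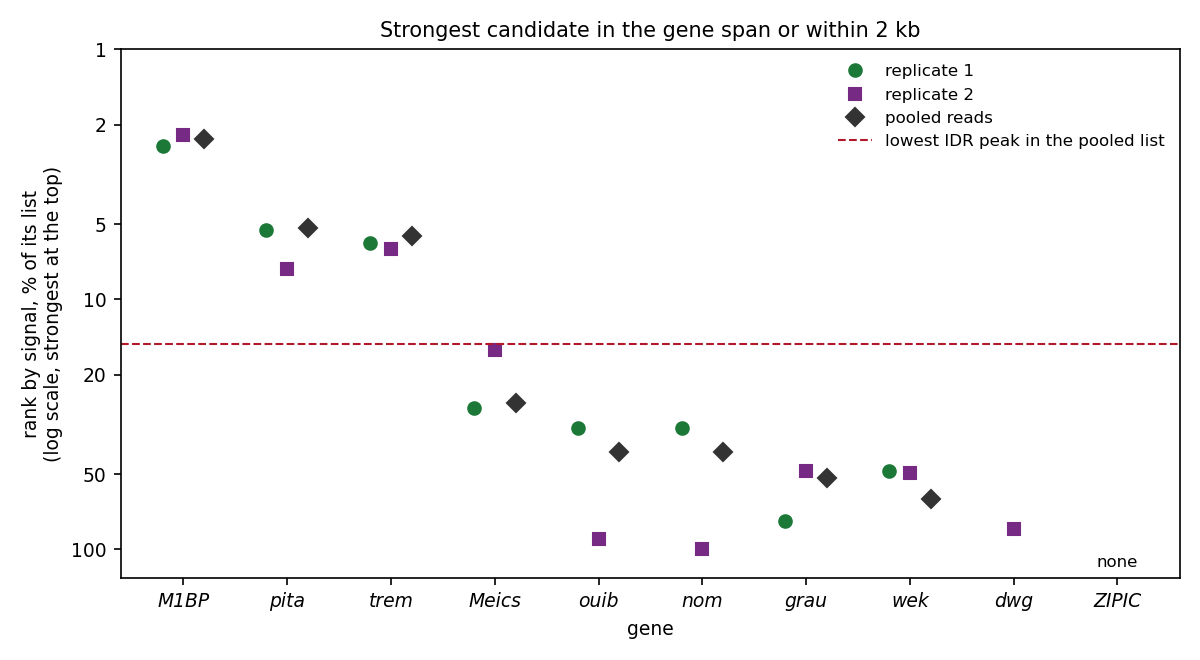
Rank by signal of the strongest candidate of each ZAD gene, as a percent of the list it comes from (log scale, strongest at the top), in replicate 1 (circles), replicate 2 (squares) and the pooled reads (diamonds); the dashed line is the lowest IDR peak, at 15.1% of the pooled list. M1BP, pita and trem lie above the line in all 3 lists, dwg has a point in replicate 2 only, and ZIPIC has none.

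Among the genes for promoter and insulator proteins, M1BP had the strongest peak. M1BP binds Motif 1, a sequence of core promoters. Its gene lies on chromosome arm 3R from position 8729790 to 8731698, on the minus strand, next to CG8202, which is read in the opposite direction. The IDR peak covered positions 8731910 to 8732135, a width of 226 bp against a median of 390 bp in the IDR list. Its summit at 8732015 was intergenic, 317 bp upstream of the M1BP TSS and 76 bp upstream of the CG8202 TSS. The starts of these genes are 393 bp apart, so the peak lies in a promoter region that they share, with the pooled summit and that of replicate 1 nearer to CG8202. The reference sequence within 50 bp of the summit, dm6 chr3R:8731965-8732065 read on the minus strand, is shown because it carries the highest signal of any listed gene. None of the motif words searched for occurs in it, so it has no capitals.
M1BP summit: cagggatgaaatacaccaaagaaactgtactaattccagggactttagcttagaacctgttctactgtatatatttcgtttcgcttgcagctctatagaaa

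This peak ranked 623 of 27219 pooled candidates (2.29%) and 565 of 23253 in replicate 1 (2.43%), where the summit was 3 bp away. Replicate 2 gave a pair of candidates in place of 1. The stronger, with a signal of 105 at rank 661 (2.20%), was 180 bp upstream of the M1BP TSS, nearer to it than to the CG8202 TSS, and 137 bp from the pooled summit. The weaker, with 50.9 at rank 2507 (8.36%), was 64 bp from the pooled summit and is the one matched to it. Both lay between the starts of M1BP and CG8202. Of the 2164 IDR promoter summits of all genes, that of M1BP stood at place 408 (18.9%), above the upper quartile of 268. The peak just above it was at Sry-delta (signal 318) and the one just below at bin3 (317). Sry-delta encodes a zinc finger factor whose translated protein also matched the ZAD pattern without the proline.

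M1BP closes a row of neighbouring ZAD genes on 3R. At lower coordinates lie nom, ouib, CG8159 and ranshi, and the proteins of all 5 matched the strict pattern. Gaps between neighbours were 121 bp between nom and ouib, 123 bp between ouib and CG8159, and 96 bp between ranshi and M1BP. In the region drawn around M1BP, which takes in all 5 genes, the peak between M1BP and CG8202 was the only IDR peak. It was also the nearest IDR peak to ouib, at 6.54 kb from the ouib TSS, and to nom, at 8.84 kb.

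**Figure D2:**
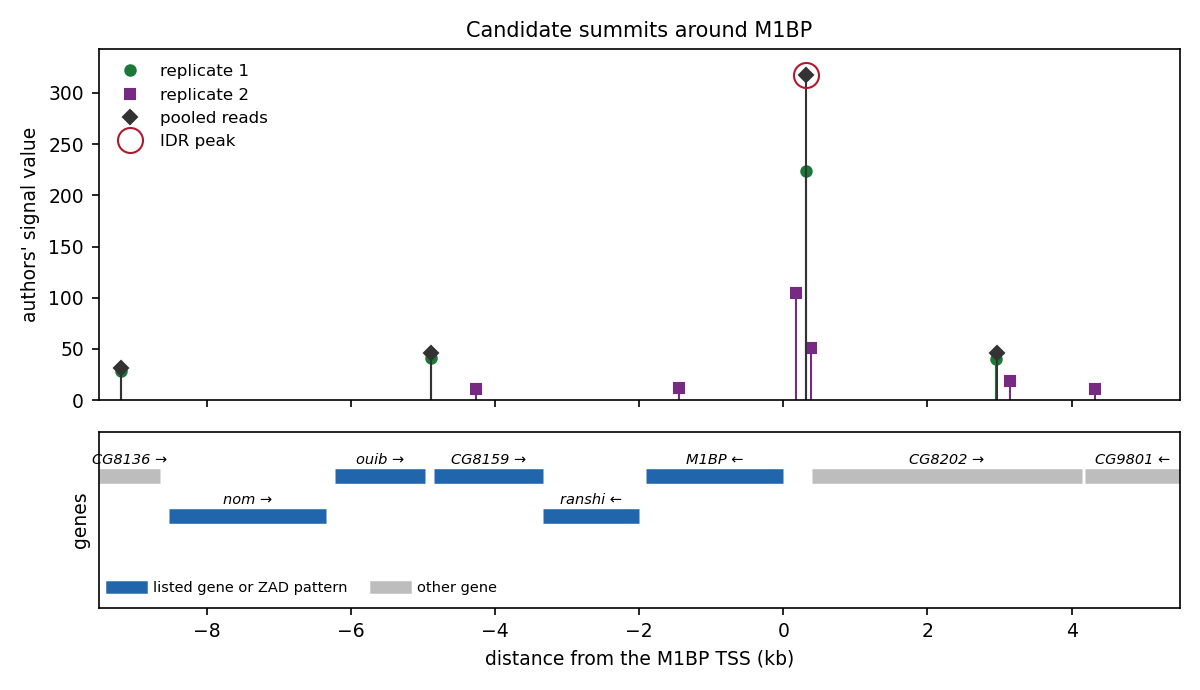
Signal of candidate summits (upper panel, linear axis) and genes (lower panel, arrows give the reading direction) by distance in kb from the M1BP TSS; a ring marks the IDR peak, and blue bars are listed genes or genes with the ZAD pattern. The IDR peak with a pooled signal of 317 stands between M1BP and CG8202, and every other candidate in the region is weaker, such as the 46.0 between ouib and CG8159.

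ZIPIC and dwg, which both encode insulator proteins, had no strong site. ZIPIC protein works with the cofactor Cp190, and dwg encodes Zw5, a boundary protein. ZIPIC (3R, 30035240 to 30036870, minus strand) had no candidate in its span or within 2 kb in any of the 4 lists. Its nearest IDR peak was 6.45 kb upstream of its TSS, at Sry-delta. At dwg (X, 2727698 to 2730042, plus strand) the single candidate, of replicate 2, had a signal of 11.4 at rank 24960 of 30000. Its summit lay 2848 bp downstream of the dwg TSS in a coding exon of ttm50. The nearest IDR peak to dwg was 4.62 kb downstream of its TSS, with a signal of 120, at the starts of ttm50 and CG2712, another gene with the ZAD pattern. The 101 bases just before the ZIPIC start, dm6 chr3R:30036871-30036971 on the minus strand, are shown as a promoter of the list that lacks any candidate. Capitals mark the word CGATA, the core of the sequence bound by BEAF-32, which occurs there in both of 2 adjacent copies.
ZIPIC before the start: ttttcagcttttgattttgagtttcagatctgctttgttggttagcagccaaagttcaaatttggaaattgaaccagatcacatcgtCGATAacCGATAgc

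In pita, the gene of another insulator protein that recruits Cp190, the promoter summit lay downstream of the start. The gene spans positions 23548967 to 23554712 of 2R on the minus strand and has 2 annotated TSSs. The IDR peak at 23554385 to 23554774 had its summit at 23554580, which is 132 bp inside the gene in the 5′ UTR, and no other gene had a TSS within 500 bp. It was the only one of the 4 IDR peaks with its summit inside a listed gene. Its signal was 90.9 in replicate 1 (rank 2680, 11.5%), 53.6 in replicate 2 (rank 2312, 7.71%) and 143 in the pooled reads (rank 2561, 9.41%). The summits of the replicates were 3 and 5 bp from the pooled one. Among all IDR promoter summits it stood at place 1424 of 2164 (65.8%), between that of Pex16 and Pex14, which encode peroxisome assembly proteins, and that of CG32687, all with signals of 143.

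A further IDR peak within 2 kb of pita belonged by position to other genes. Its summit at 23548053 was 914 bp beyond the 3′ end of pita, in the annotated 5′ UTR of wmd, 65 bp upstream of the nearest wmd TSS. The TSS of levy, which encodes a cytochrome c oxidase subunit, was also within 500 bp. This peak had a signal of 147 in replicate 1, 54.2 in replicate 2 and 205 in the pooled reads, where it ranked 1414 (5.19%). It was thus stronger than the peak at the pita promoter in replicate 1 and in the pooled reads, and similar to it in replicate 2. Weaker pooled candidates at pita were 83.5 in the levy 5′ UTR, 64.6 at 70 bp upstream of the pita start, 37.7 near the internal pita TSS and 33.6 in a pita coding exon. The last 2 also lay within 500 bp of a TSS of Dcp-1, a caspase gene nested in pita.

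Of the 18 different pooled candidates at listed genes, 4 were IDR peaks, against 15.1% of the whole pooled list. Those at a promoter lay on either side of a TSS, with pita alone downstream. Within 500 bp of a TSS of a listed gene, the 3 candidates above the IDR limit were M1BP at 317 bp upstream, trem at 220 bp upstream and pita at 132 bp downstream. For all 2164 IDR promoter summits, the position relative to the nearest TSS had a median of -108.5 bp (negative is upstream), and 85.6% lay upstream. Measured to the nearest TSS of any gene, the M1BP and trem summits were upstream at 76 and 220 bp, and pita was downstream. The candidate just below the limit among the listed genes at a promoter was Meics with 64.8.

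**Figure D3:**
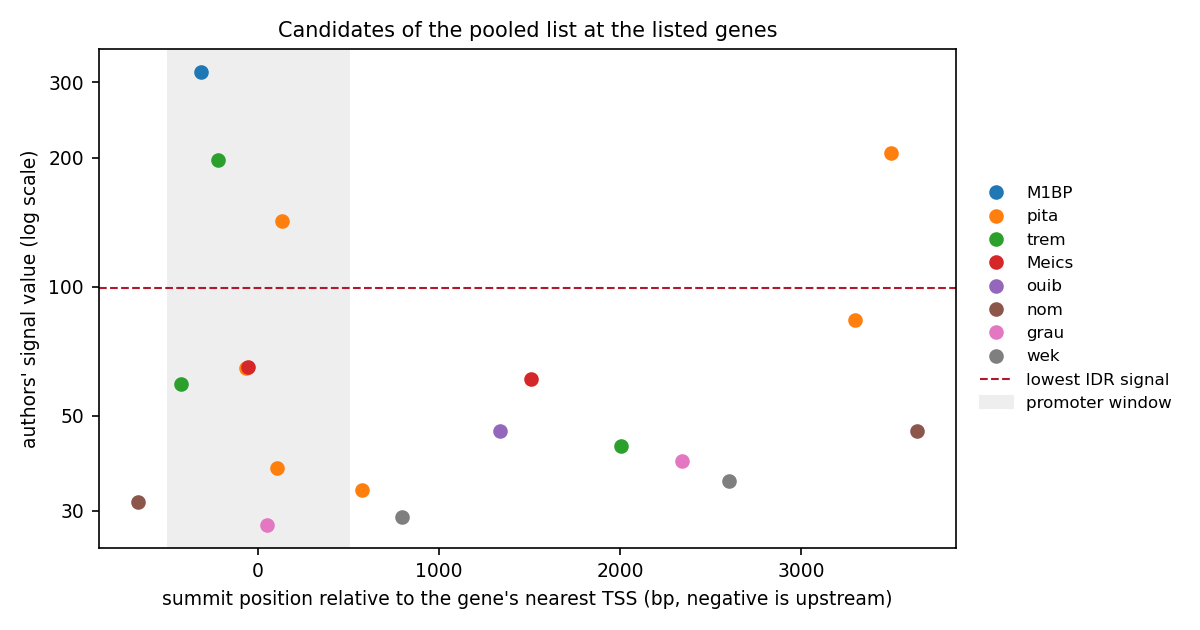
Authors' signal value (log scale) of every pooled candidate at the ZAD genes by the distance of its summit from the gene's own nearest TSS in bp; the dashed line is the lowest IDR signal, 99.3, and the shaded band is the promoter window of 500 bp. Of 18 candidates, drawn as 19 points because ouib and nom share 1, there are 4 above the line; a pita point at 64.6 lies almost under the Meics point at 64.8.

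Of the genes with germline roles, trem alone had an IDR peak. trem is needed to form the DNA breaks of meiotic recombination. It spans positions 20029560 to 20031309 of 3R on the minus strand and faces idc, which is read the other way, with 514 bp between the start sites. The IDR peak at 20031334 to 20031723 had its summit at 20031529, in the intergenic gap, 220 bp upstream of the trem TSS and 294 bp upstream of the idc TSS. idc has the ZAD pattern too, so 1 peak lay between the starts of a pair of ZAD genes. The sequence within 50 bp of the summit, dm6 chr3R:20031479-20031579 on the minus strand, is shown as the second strongest promoter site of the list; capitals mark the TATA box word TATAAA.
trem summit: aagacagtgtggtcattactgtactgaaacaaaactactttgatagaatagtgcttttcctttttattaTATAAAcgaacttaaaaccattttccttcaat

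The trem peak had a signal of 138 in replicate 1 (rank 1386, 5.96%), 60.8 in replicate 2 (rank 1897, 6.32%) and 197 in the pooled reads (rank 1514, 5.56%). The summits of the replicates were 2 and 21 bp from the pooled one, so the lists placed it alike. Among all IDR promoter summits it stood at place 898 of 2164 (41.5%), just below the peak at DPCoAC and CG5180 (198) and just above that at Eip63F-1 (197). A weaker candidate 427 bp upstream of the trem TSS, which is 87 bp upstream of the idc TSS, was also found in both replicates, with signals of 34.2 in replicate 1, 23.9 in replicate 2 and 59.3 in the pooled reads. On the far side of trem, a pooled candidate of 42.4 lay in a coding exon of CG4854, and it was matched in replicate 1 alone (26.9). Of the 3 IDR summits at a promoter of a listed gene, 2 (M1BP with CG8202, trem with idc) were within 500 bp of the TSSs of 2 or more genes, against 44.7% of all IDR promoter summits.

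**Figure D4:**
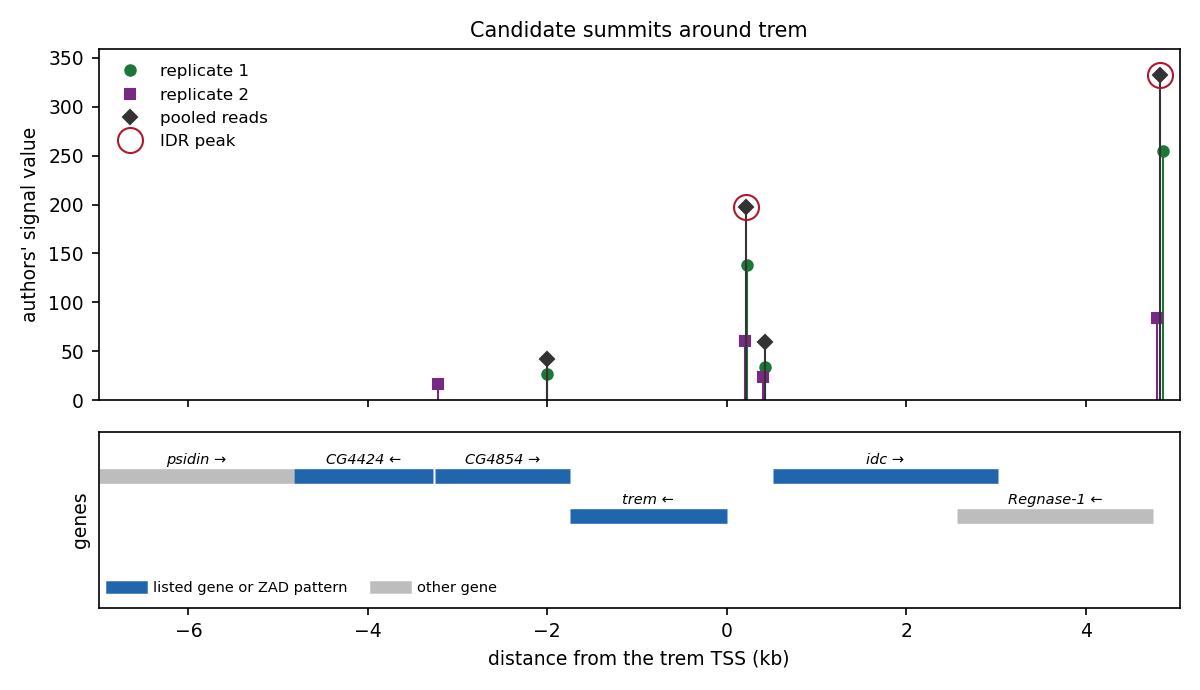
Signal of candidate summits (upper panel, linear axis) and genes (lower panel, arrows give the reading direction) by distance in kb from the trem TSS; rings mark IDR peaks, and blue bars are listed genes or genes with the ZAD pattern. trem stands in a row with CG4424, CG4854 and idc, with an IDR peak of 197 between trem and idc and a stronger one of 332 at 4.83 kb.

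Meics, nom and grau, which also have germline roles, had candidates below the IDR limit. Meics is named for the meiotic central spindle. It spans positions 13962658 to 13964702 of 3L on the minus strand. Its strongest pooled candidate, 64.8 at rank 7076 (26.0%), had its summit 58 bp upstream of the Meics TSS, with the starts of ssp2 and Nxf3 also within 500 bp. It was found in both replicates, with 36.2 in replicate 1 (rank 9164, 39.4%) and 32.6 in replicate 2 (rank 4802, 16.0%). A second pooled candidate, of 61.0, lay in the Meics coding sequence 1510 bp downstream of the TSS and was matched in replicate 1 alone (47.1). The sequence within 50 bp of the summit near the start, dm6 chr3L:13964710-13964810 on the minus strand, is shown for comparison with the stronger sites. Capitals mark 2 copies of CGATA, read on the opposite strand as TATCG, and the E-box word CAGCTG.
Meics summit: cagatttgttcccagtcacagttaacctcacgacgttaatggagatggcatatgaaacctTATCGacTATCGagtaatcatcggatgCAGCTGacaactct

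nom, named for a defect of the mitochondrial derivative in sperm, and ouib, which drives a gene of ecdysone synthesis in the prothoracic gland, shared their strongest candidate. Its summit, at position 8726816 of 3R, was 86 bp beyond the 3′ end of ouib and 38 bp upstream of the TSS of CG8159, another ZAD gene. The candidate had a signal of 41.1 in replicate 1 (rank 7612, 32.7%) and 46.0 in the pooled reads (rank 11114, 40.8%), with no summit within 100 bp in replicate 2. By position it is a candidate of the CG8159 promoter, since neither ouib nor nom had a candidate within 500 bp of its own TSS in any list. nom had a further pooled candidate of 31.4 in a coding exon of CG8136, 666 bp upstream of its TSS, matched in replicate 1 (28.7).

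wek encodes an adaptor of the Toll immune pathway. It lies at positions 15766133 to 15768349 of 2L on the minus strand. The pooled candidates had signals of 35.2 (rank 17088, 62.8%), in the 3′ UTR of the overlapping gene CG3793, and 29.0 (rank 23799, 87.4%), in the wek coding sequence. Both were matched in replicate 1 (26.1 and 32.1) and neither in replicate 2. There was no candidate within 500 bp of the wek TSS in any list. The nearest IDR peak was 6.30 kb away at Gli, with a signal of 139. The 101 bases before the wek start, dm6 chr2L:15768350-15768450 on the minus strand, are shown because they hold a whole DNA replication-related element (DRE), the palindrome TATCGATA in capitals, while no candidate lay there.
wek before the start: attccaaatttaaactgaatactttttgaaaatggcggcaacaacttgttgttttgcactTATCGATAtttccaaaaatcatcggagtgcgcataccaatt

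grau activates cortex, a gene needed in female meiosis, and lies at positions 21009764 to 21011921 of 2R on the minus strand. A pooled candidate of 39.3 (rank 14166, 52.0%), 185 bp beyond its 3′ end, was 3 bp from the TSS of CG30291 and was matched in replicate 1 (25.0) and replicate 2 (13.9). A candidate in the grau 5′ UTR, 50 bp downstream of the TSS, had 27.7 in the pooled reads (rank 25671, 94.3%) and 16.0 in replicate 2, with no match in replicate 1. The grau promoter thus had the lowest pooled signal of the 5 listed genes with a promoter candidate.

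Measured from the TSS to the nearest IDR summit anywhere, the distances were 0.132 kb for pita, 0.220 kb for trem and 0.317 kb for M1BP. They were 4.62 kb for dwg, 5.61 kb for grau, 6.30 kb for wek, 6.45 kb for ZIPIC, 6.54 kb for ouib, 7.30 kb for Meics and 8.84 kb for nom. No listed gene had a distance between 0.317 and 4.62 kb. The median of the 10 was 5.95 kb, against 8.12 kb for all genes.

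The windows of 101 bp around the IDR summits had little in common in the words searched for. These were TATCGATA (DRE), GGTCACACT (Motif 1), CGATA (BEAF-32 core, also part of the DRE), GAGAG (GAGA), the E-boxes CACGTG and CAGCTG, and TATAAA, each on both strands. The M1BP summit held none and the trem summit TATAAA, a word found in 21.5% of all IDR promoter windows and in 16.1% of windows centred on gene starts. With 100 bp on either side, both summits had TATAAA (37.9% of IDR promoter windows, 27.8% at gene starts), and M1BP also had CAGCTG (10.7% and 12.3%). Both IDR windows at pita held CGATA, found in 22.0% of IDR promoter windows and in 22.6% of windows at gene starts. The windows at the weaker promoter candidates of grau and Meics held it too. With 100 bp on either side, the pita promoter summit also had GAGAG (18.2% of IDR promoter windows, 22.2% at gene starts). The summit at wmd then had TATAAA. No IDR window of a listed gene held the DRE, which was in 3.37% of IDR promoter windows and in 4.39% of windows at gene starts. None held Motif 1 either, which was in 1.34% of IDR promoter windows and in 3.43% of windows at gene starts. With 100 bp on either side, the DRE was in 6.89% of IDR promoter windows and 6.23% of windows at gene starts. The shares were then 3.14% and 4.17% for Motif 1, and 38.4% and 35.7% for CGATA. The sets of windows are centred on different positions, and whether a word is enriched or depleted was not tested. Centred on the gene starts themselves, Motif 1 was found at ZIPIC and the DRE at wek, while pita, M1BP, ouib, nom and trem had none of the words within 50 bp. A word is a string of letters and does not show that its factor binds, and a window without it shows only that these letters are absent from it.

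In base composition, G and C made up 37.6% of the M1BP window, 28.7% of the trem window and 32.7% of the window at the pita promoter. All 3 fell between the lower quartile of 26.7% and the upper quartile of 40.6% of the IDR promoter windows, whose median was 32.7%. The second pita window, at wmd, had 42.6% and the Meics window 43.6%. The longest run of letters shared by the M1BP and trem windows was ACTGTACT, a comparison made after the windows had been seen. It occurred in 11 of 2164 IDR promoter windows (0.508%) and in 41 of 18164 windows at gene starts (0.226%). The 11 windows include those of M1BP and trem, from which the run was taken, and the sets of windows are centred on different positions. Whether the share differs between the sets was not tested.

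The 10 genes are part of a larger family. The strict ZAD pattern with at least 1 C2H2 finger was found in the proteins of 63 genes, of which 56 are not on the list. Of these 56, 24 had an IDR promoter summit (42.9%), against 19.8% of protein-coding genes. Of the 7 listed genes with the strict pattern, 3 had one (M1BP, pita and trem). ZIPIC, grau and wek, which matched only without the proline, had none, which makes 3 of all 10 listed genes. Among genes not on the list, the pattern without the proline was found in 85, of which 34 had an IDR promoter summit. In the span or within 2 kb, 31 of the 56 had an IDR summit (55.4%), against 34.4% of protein-coding genes. The 24 genes rested on 23 different peaks, since CG14711 and Zaf1 share 1, and 20 of the 24 had the TSS of another gene within 500 bp of the summit. Of all IDR promoter summits, 44.7% were within 500 bp of the TSSs of 2 or more genes, a count of summits and not of genes. How far such shared promoters and close neighbours bear on the count was not tested.

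The listed genes with an IDR promoter summit fell within the range of signal of the others. Signals were 317 at M1BP, 197 at trem and 143 at pita, against 101 to 828 with a median of 215 at the 24 other genes. Of the 24 genes, 7 lay above the upper quartile of all IDR promoter summits, as did M1BP, with CG14711 and Zaf1 both counted by their shared peak. Below the lower quartile lay 4 of the 24, and none of the listed genes fell there. The 5 highest were CG1792 (828, rank 59 of the IDR list, shared with Mnat9), CG10147 (705, rank 94, shared with Bulli), CG18476 (396), CG4820 (385, shared with the ribosomal protein gene RpS25) and D19B (326, shared with CG43293). Of the 6 other pattern genes within 20 kb of a listed gene, only idc and CG2712 had an IDR promoter summit, and that of idc is the trem peak.

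**Figure D5:**
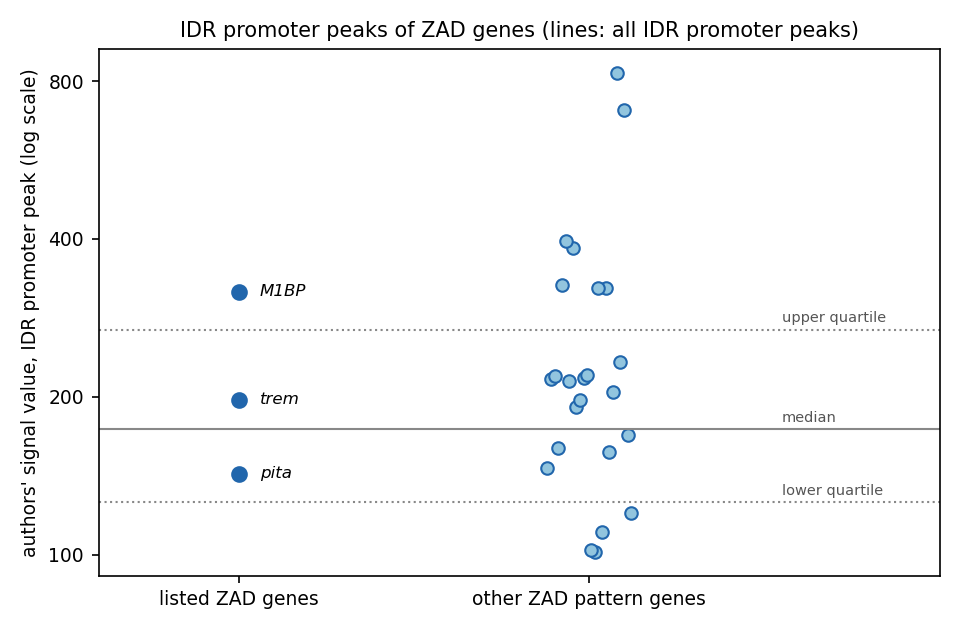
Authors' signal value (log scale) of the IDR promoter peaks of the listed ZAD genes (left, 3 genes) and of other genes with the strict ZAD pattern (right, 24 genes); lines are the lower quartile, median and upper quartile (126, 173 and 268) of all 2164 IDR promoter summits. M1BP lies above the upper quartile, trem between the median and the upper quartile, and pita between the lower quartile and the median.

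The gene of the tagged protein, CG10654 (3L, 12505374 to 12507840, minus strand), resembled the listed genes without a strong promoter peak. Its promoter candidate, 28 bp upstream of the TSS, had a pooled signal of 34.6 at rank 17571, and a candidate in its intron had 51.5. An IDR peak of 264 at rank 887 (3.26%) lay 1166 bp beyond its 3′ end and 84 bp upstream of vih, a gene for a ubiquitin-conjugating enzyme, with the TSS of CG10646 also within 500 bp. That peak had a signal of 162 in replicate 1 and 99.1 in replicate 2.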

How the data were processed

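Candidate lists of both replicates and of their pooled reads, and the IDR list, were used on dm6, and the 4 lists on dm3 were not used. Per the labels, the samples were biological replicates; the aligner and the peak caller, with versions, are named nowhere in the sources used here, and the control library was not analysed here. Field 7 of the deposited lists is a signal value that the authors assigned to every peak. Field 9 is the authors' −log10 q value, used only in an alternative ranking and to describe pooled candidates below. Ranks, distances and word counts were computed with Python 3.11.15, numpy 2.4.6 and pandas 2.3.3, on the Release 6 genome and the Ensembl release 115 annotation (FlyBase 6.54), and checked on simulated data. Coordinates are 1-based. Sequences come from RefSeq's copy of Release 6. Proteins were translated from the longest annotated coding sequence, a source chosen after the files had been seen, where the plan had named a protein table and otherwise no result. Motif shares of windows at gene starts likewise replace a promoter table. The genes and lists were chosen with earlier results of these data known. Besides the listed genes and CG10654, the text names genes at shared summits, neighbours in rank, and the 5 other pattern genes of highest signal; genes next to a listed gene, at its nearest IDR peak or sharing a pattern gene's summit, were named after their values were seen.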

Additional observations from a re-analysis of the deposited data

How the results depend on the processing

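Of 39 recomputed values under 16 settings, 33 stayed within 1.5 times of the reported value and 6 moved further. Listed genes with an IDR summit in the span or nearby numbered 3 within 2 kb, 5 within 5000 bp (with dwg and wek, 43.9% of all genes) and 1 in the span alone (pita, 8.91% of all genes). Listed genes with a pooled candidate numbered 8 within 2 kb and 4 in the span alone, against 33.1% of all genes. With summits matched within 50 bp, 4 of the 18 candidates were found in both replicates, against 28.4% of all. With 100 bp on either side of the summit, 4 of the 7 words occurred at IDR summits, in place of 2. Ranked by the −log10 q value, where strong peaks tie, the M1BP peak stood at 4.10% of the pooled list instead of 2.29%. Taking the 4117 strongest candidates of 1 replicate in place of the IDR list left 3 to 3 listed genes with a summit in the span or within 2 kb (30% and 31.1% of all genes) and 3 to 3 with a promoter summit (15.6% and 16.5%), M1BP, pita and trem each time. Listed genes with any candidate of replicate 1 numbered 8 (71.3% of all genes) and of replicate 2 numbered 9 (74.6%). Listed genes with a promoter summit numbered 2 within 250 bp (without M1BP, 12.7% of all genes) and 2 in the upper 2058 IDR peaks (without pita, 9.35%). Of the 56 other pattern genes, 17 had a promoter summit in the upper 2058 IDR peaks (9.35% of all genes) and 25 had one within 1000 bp (19.6%); with the pattern anywhere in the protein the count was 25 of 65, and without the proline 34 of 85 (16.3% of all genes in both). No paired analysis was possible because the samples form a single group and no test was made. In the pooled list the authors' −log10 q value was 0.0325 at the grau promoter, 0.0519 and 0.193 at wek, and 0.608 at the candidate shared by ouib and nom. It was 1.64 at the Meics promoter and 3.23 to 3.65 at the IDR peaks of listed genes. Candidates with low values cannot be told from background, and the read depth is unknown.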
